A study of Mus musculus with 36 samples.

Results

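The genes described here encode the G protein-coupled receptors for serotonin, noradrenaline and dopamine, the muscarinic receptors for acetylcholine, and the serotonin-gated ion channel. They were chosen by symbol alone: every gene whose name begins with Htr1 to Htr7, Adra1 or Adra2, or Drd1 to Drd5, together with the Adrb genes and Chrm1 to Chrm5. The rule found 33 genes among the 24058 of the deposited tables. Of these, 29 averaged at least 10 raw reads over the 36 libraries and were analysed: 13 of 14 serotonin, 8 of 9 adrenergic, 3 of 5 dopamine and 5 of 5 muscarinic receptor genes. The other 4 had hardly any reads in these libraries, with 0 to 10 for Adra2b, 0 to 5 for Drd3, 0 to 9 for Drd4 and 0 to 1 for Htr3b. The dopamine receptor gene Drd1 is spelled Drd1a in the tables.

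Serotonin, noradrenaline, dopamine and acetylcholine reach the hippocampus mostly along fibres whose cell bodies lie elsewhere in the brain, and their receptors on hippocampal cells set how readily synapses change strength. Receptors that couple to Gs raise cyclic AMP, those that couple to Gi lower it and open potassium channels, and those that couple to Gq activate phospholipase C and release calcium from internal stores. Forskolin, the drug used here to induce potentiation, activates adenylyl cyclase directly and so acts on the enzyme that the Gs- and Gi-coupled receptors control.

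The libraries came from acute mini-slices of mouse hippocampus that held fields CA3 and CA1, with the dentate gyrus cut away. In LTP slices, chemical long-term potentiation was induced with forskolin followed by raised calcium and potassium without magnesium; basal slices from the same animals received vehicle and were collected at the same time. From each homogenate, ribosome-bound RNA was pulled down by an HA tag (translating ribosome affinity purification, TRAP), and Total RNA was taken alongside. At each of 30, 60 and 120 min after induction there were 3 TRAP LTP, 3 TRAP basal, 3 Total LTP and 3 Total basal libraries, every one of them pooled from several mice.

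All 12 groups shared the same genotype: young adult C57BL/6 mice of both sexes that carried 1 copy of Camk2a-Cre and 1 copy of RiboTag, the allele in which Cre adds an HA tag to the ribosomal protein Rpl22. The Camk2a promoter drives Cre in forebrain excitatory neurons, so TRAP RNA is drawn mainly from CA3 and CA1 pyramidal neurons, while Total RNA holds every cell of the slice. The 12 libraries of a time were handled and sequenced as 1 set, with single-end reads at 30 min and paired-end reads at 60 and 120 min. The basal libraries of a time serve as reference in its LTP comparison and enter the TRAP to Total comparison too, so these comparisons share samples.

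The libraries held 21265627 to 52459224 reads assigned to genes. Cell type markers separated TRAP from Total RNA: of 6 excitatory neuron markers 5, 4 and 5 were higher in basal TRAP than in basal Total RNA at 30, 60 and 120 min and 9 of 9 interneuron markers were lower at each time. All 6 astrocyte and all 6 microglia markers were lower in TRAP RNA too. Reads of dentate granule markers remained although the dentate gyrus was cut away. Of 4 such markers, C1ql2 was higher in basal TRAP at each time and 0 were lower. Another, Dsp, was called higher in TRAP LTP than in TRAP basal at 30 min. The 3 TRAP basal libraries at 120 min stood apart. The ribosomal RNA precursor Rn45s took 40.6 to 61.4% of their reads, against 0.13 to 1.58% in TRAP LTP at 120 min, and left 10146353 to 16753607 other reads. Summed kidney marker levels were 0.910 to 2.41 CPM (reads scaled to a common library size) in TRAP LTP and 8.07 to 8.29 CPM in TRAP basal at 120 min. In Total RNA at 120 min they were 3.48 to 4.76 CPM in LTP and 4.58 to 9.19 CPM in basal libraries. Kap, Umod and Acsm2 had 0 reads in all Total libraries at 30 and 60 min. Both Total groups at 120 min held reads of them. The part of kidney RNA, and of the fewer other reads in TRAP basal, in the 120 min comparisons was not tested. The activity-regulated genes Arc, Fos and Npas4 were each called higher in LTP than in basal slices in all 6 LTP comparisons.

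Together the 33 receptor genes took a small share of the transcriptome. Their summed level was 789 to 1080 CPM in the 9 basal TRAP libraries, against 545 to 773 CPM in the 9 basal Total libraries. To compare genes with each other, levels were divided by the length of each gene's merged exons. Per kb, Adra1d, a Gq-coupled noradrenaline receptor, had the highest basal TRAP level at 58.1 ± 7.58 CPM per kb (mean ± SD of the 3 times), and Chrm1, the main Gq-coupled muscarinic receptor of forebrain neurons, followed at 48.3 ± 1.42. Chrm3, also Gq-coupled, stood at 26.9 ± 3.15, and the Gi-coupled Chrm4 at 20.7 ± 2.87 CPM per kb.

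The means that followed differed from each other by less than their spread over the times. Drd5, a Gs-coupled dopamine receptor, stood at 17.9 ± 2.08 CPM per kb in basal TRAP RNA. Adra2c, a Gi-coupled noradrenaline receptor, stood at 17.6 ± 1.15, and Htr1a, a Gi-coupled serotonin receptor, at 17.0 ± 2.71. Chrm4 was not clearly apart from these genes, since at 120 min Adra2c stood above it (18.6 against 17.4 CPM per kb). Adrb1, the Gs-coupled beta adrenoceptor, was next at 12.4 ± 0.727. The remaining 21 analysed genes lay below 8 CPM per kb in basal TRAP RNA. Among them were Htr5b at 7.97 ± 1.46 and Chrm5 at 7.92 ± 1.31, which cannot be ordered. Receptors that are widely studied in other brain regions were low here in basal TRAP RNA: Htr2a stood at 4.05 ± 0.733, Drd1a at 0.660 ± 0.0975 and Drd2 at 0.0510 ± 0.0222 CPM per kb.

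In basal Total RNA the first 4 places by the means were the same, with Adra1d at 41.2 ± 8.77 and Chrm1 at 31.4 ± 3.30 CPM per kb. At 120 min Adra2c (10.7) stood above Chrm4 (9.97) in Total RNA, so the fourth place was not fixed. The largest shift in rank was that of Htr3a, the subunit of the serotonin-gated ion channel: it ranked 23 of 29 in basal TRAP RNA at 0.281 ± 0.0339 CPM per kb and 9 of 29 in basal Total RNA at 5.27 ± 1.06. Chrm2, a Gi-coupled muscarinic receptor, stood at 0.0747 ± 0.0104 in basal TRAP and 0.710 ± 0.0883 CPM per kb in basal Total RNA. The lengths come from a gene annotation of the same genome build, and transcripts that use only part of the merged exons would read too low on this scale. Genes with counted reads outside the merged exons would read too high. Genes on the opposite strand overlap 7.74% of the Adra1d exon bases (Gm14285) and 5.07% of those of Chrm1 (Gm22820). The libraries keep no strand, so reads of such genes cannot be told apart there. The merged exons measured 1.9 kb for Adra1d, 1.44 kb for Chrm4 and 6.27 kb for Chrm1, so the order depends on these lengths. Before division by length, Chrm1 had a mean of 303 CPM and Adra1d 115 CPM in basal TRAP at 30 min.

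**Figure D1:**
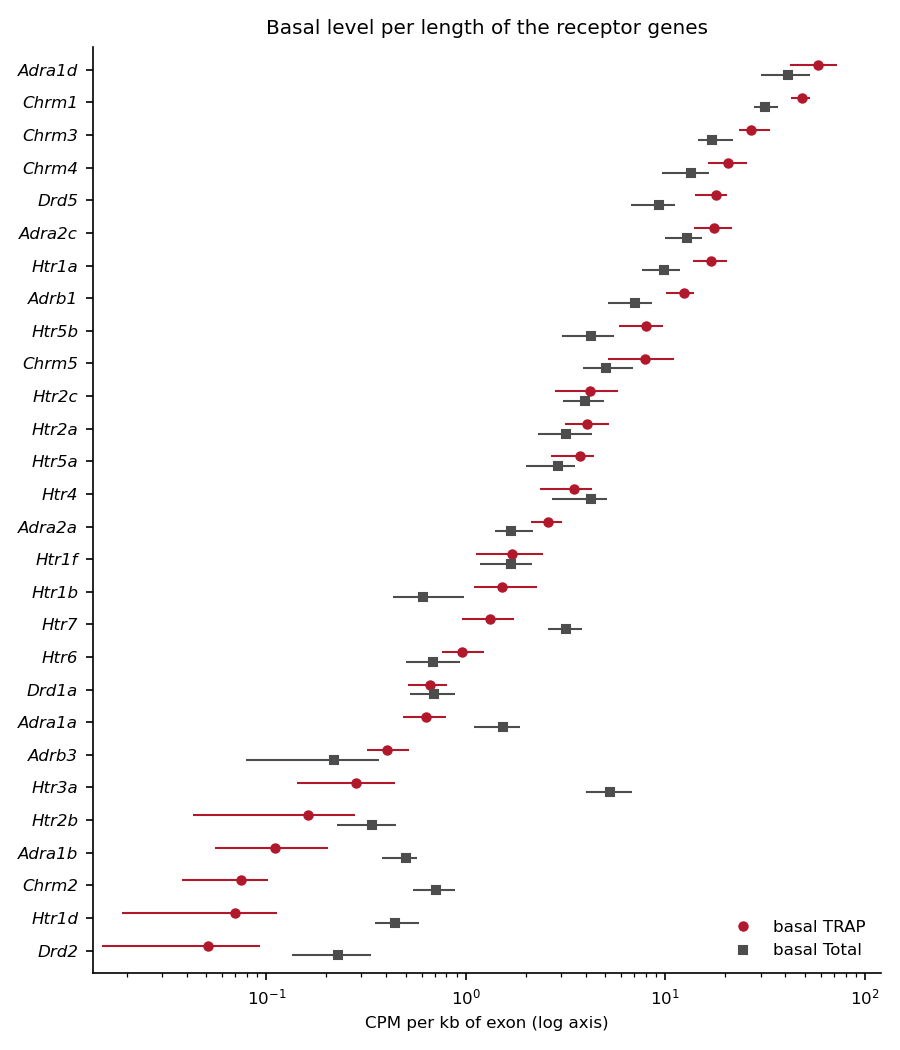
Basal levels of 28 of the 29 analysed receptor genes in CPM per kb of merged exons (log axis), in order of the TRAP level; points are means over the 3 times for TRAP and Total, and lines span the lowest to the highest of the 9 basal libraries. The line that runs to the left edge belongs to Drd2, which had a TRAP library at 0 reads. Adra1d, Chrm1, Chrm3 and Chrm4 had the highest means in both, and Htr3a stood far lower in TRAP (0.281) than in Total (5.27).

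The comparison of basal TRAP with basal Total RNA asks which receptor transcripts were carried on the ribosomes of excitatory neurons. A gene was called when its false discovery rate was below 0.1 and its log2 fold change exceeded 0.4 in size. In basal slices, 21, 20 and 23 of the 29 genes were called at the 3 times, where 61.7, 58.1 and 59.2% of all genes tested were. Of the receptor genes, 12, 11 and 15 were higher in TRAP, beside 29.0, 27.0 and 26.8% of all genes, and 9, 9 and 8 were lower, beside 32.7, 31.1 and 32.4%. At all 3 times, 10 receptor genes were higher and 8 were lower in TRAP, where 21.1% of all genes were higher and 26.8% lower. Of these 10, Adra2a lost its call at 60 min without replicate 3 (0.31). In bulk samples, fewer cells that express a gene, less RNA per cell and less RNA on ribosomes cannot be told apart.

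Htr1b, a Gi-coupled serotonin receptor best known from axon terminals, had the highest ratio among those higher at all 3 times. At 30 min it had 5.81, 6.46 and 5.18 CPM in basal TRAP, against 2.54, 2.05 and 2.59 CPM in basal Total libraries. The groups did not overlap at any time. The log2 fold change of TRAP over Total, with its SE, was 1.27 ± 0.15 at 30 min (edgeR quasi-likelihood test, adjusted p = 8.62e-06), 1.31 ± 0.18 at 60 min and 1.37 ± 0.12 at 120 min. Its serotonin relatives Htr5b, at 1.05, 0.80 and 0.89, and Htr1a, at 0.74, 0.76 and 0.85, were also called higher at 30, 60 and 120 min.

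Drd5 was the only dopamine receptor gene higher in TRAP. It had 64.4, 58.9 and 56.4 CPM in basal TRAP, against 33.6, 29.9 and 32.0 CPM in basal Total libraries at 30 min, and the log2 fold change was 0.90 ± 0.071 (adjusted p = 3.65e-07). At 60 and 120 min it was 0.83 ± 0.061 and 1.14 ± 0.079. The annotation places an antisense transcript, Gm26560, across 48.6% of the Drd5 exon bases. The library kit keeps no strand, so reads of the pair cannot be told apart.

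The muscarinic genes divided. Chrm1, Chrm3, Chrm4 and Chrm5 were higher in TRAP at all 3 times, with log2 fold changes between 0.50 and 0.77. Chrm1, the most abundant of them in reads, had 314, 306 and 289 CPM in basal TRAP, against 208, 203 and 196 CPM in basal Total libraries at 30 min. Chrm2, known from interneurons and from cholinergic terminals where it acts as an autoreceptor, went the other way. It had 0.317, 0.479 and 0.491 CPM in basal TRAP, against 4.53, 4.77 and 4.16 CPM in basal Total libraries at 30 min, which is a log2 fold change of -3.38 ± 0.19 (adjusted p = 2.61e-08). At 60 and 120 min it was -3.48 ± 0.28 and -2.93 ± 0.27.

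The group that was higher in TRAP was completed by 2 noradrenaline receptors. Adrb1 stood at 0.67, 0.70 and 1.04 and Adra2a, a Gi-coupled receptor, at 0.61, 0.43 and 0.76 at 30, 60 and 120 min. Adrb3, also a beta adrenoceptor, was not called at 30 min (0.44 ± 0.25, adjusted p = 0.126; called with replicates paired, 0.46 and 0.0849) and was called higher at 60 min (0.59 ± 0.22) and 120 min (1.88 ± 0.36). The call at 60 min was lost with DESeq2, without replicate 2 and without replicate 3, with an adjusted p of up to 0.212. Its values at 120 min were 1.39, 1.50 and 0.922 CPM in basal TRAP and 0.229, 0.493 and 0.247 CPM in basal Total libraries. Those 3 TRAP libraries are the ones with high Rn45s and kidney marker levels, they held 13 to 24 Adrb3 reads each, and the part of these features in the result was not tested. An antisense transcript, Gm45470, overlaps 24.9% of its exon bases.

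The lowest ratio was that of Htr3a. At 30 min it had 0.586, 0.575 and 0.603 CPM in basal TRAP, against 14.1, 13.0 and 11.9 CPM in basal Total libraries. At 60 min the values were 0.838, 0.402 and 0.298 CPM in TRAP and 11.9, 12.2 and 9.85 CPM in Total. At 120 min they were 0.925, 0.460 and 0.576 CPM in TRAP and 8.30, 8.83 and 8.76 CPM in Total. No TRAP library came near a Total library at any time. The log2 fold changes were -4.48 ± 0.14 (adjusted p = 2.38e-10), -4.46 ± 0.22 and -3.66 ± 0.19, or ratios of 0.0449, 0.0455 and 0.0792. Htr3a is known from a class of cortical and hippocampal interneurons. Marker genes of several cell types were low in TRAP as well: the median ratio was 0.0704, 0.0933 and 0.0872 for interneuron, 0.0418, 0.0545 and 0.0628 for astrocyte and 0.0780, 0.0855 and 0.113 for microglia markers. The Htr3a ratio lay within the range of these medians at 30 and 120 min and below all of them at 60 min. The part of any of these cells in the result was not tested.

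Further genes lower in TRAP at all 3 times were Htr1d, a Gi-coupled serotonin receptor (-2.72, -2.37 and -3.24), Adra1b (-1.95, -2.93 and -1.96), Drd2 (-2.67, -1.71 and -2.02), Htr7 (-1.30, -1.25 and -1.36) and Adra1a (-1.30, -1.52 and -1.04). Htr1d and Drd2 at each time, and Adra1b and Chrm2 at 120 min, had too few TRAP reads for the LTP test in TRAP. They entered this comparison through their Total reads, so a call for them was likely to be lower. The basal TRAP libraries at 120 min held 1, 3 and 2 reads of Htr1d and 3, 0 and 2 of Drd2. They held 8, 6 and 4 reads of Adra1b and 7, 5 and 8 of Chrm2. Htr7, a Gs-coupled serotonin receptor, had 5.59, 4.08 and 4.46 CPM in basal TRAP, against 12.1, 11.3 and 10.8 CPM in basal Total libraries at 30 min. All 3 alpha1 genes encode Gq-coupled receptors, yet Adra1a and Adra1b were lower in TRAP while Adra1d stood at 0.46, 0.39 and 0.63 and was called higher at 30 and 120 min. By coupling, the genes higher in TRAP at 30, 60 and 120 min, where 29.0, 27.0 and 26.8% of all genes were, numbered 3, 3 and 4 of 8 that couple to Gs, 5, 5 and 7 of 11 to Gi, and 4, 3 and 4 of 9 to Gq. Those lower, where 32.7, 31.1 and 32.4% of all genes were, numbered 2 at each time for Gs, 3 at each time for Gi, and 3, 3 and 2 for Gq.

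A further 11 genes were called at some times or at none. Htr2a at 0.34, 0.27 and 0.39, Htr4 at -0.32, -0.27 and -0.27 and Drd1a at -0.10, -0.01 and -0.14 were not called at any time. Adra2c was called only at 120 min, at 0.77, after 0.32 and 0.27. The TRAP libraries at 120 min are those with high Rn45s and kidney marker levels, and the part of the kidney RNA in that call was not tested. Htr2c, the Gq-coupled serotonin receptor of the choroid plexus and of many neurons, stood at 0.39, 0.01 and -0.23. Htr6 stood at 0.50, 0.31 and 0.57 and was called at 30 and 120 min. Htr5a stood at 0.36, 0.31 and 0.41 and was called at 120 min. Htr6 lost its call without replicate 3 at 30 min and without replicate 1 at 120 min, and Htr5a without replicate 1. The part of the kidney RNA in these 120 min calls was not tested either. Htr1f stood at -0.10, 0.15 and -0.03. Htr2b had 3 to 34 reads per library, and its values of -2.08, -1.11 and -0.22, called at 30 and 60 min, rest on those. The gene Psmd1, on the opposite strand, overlaps 11.8% of its exon bases, and reads of the pair cannot be told apart.

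**Figure D2:**
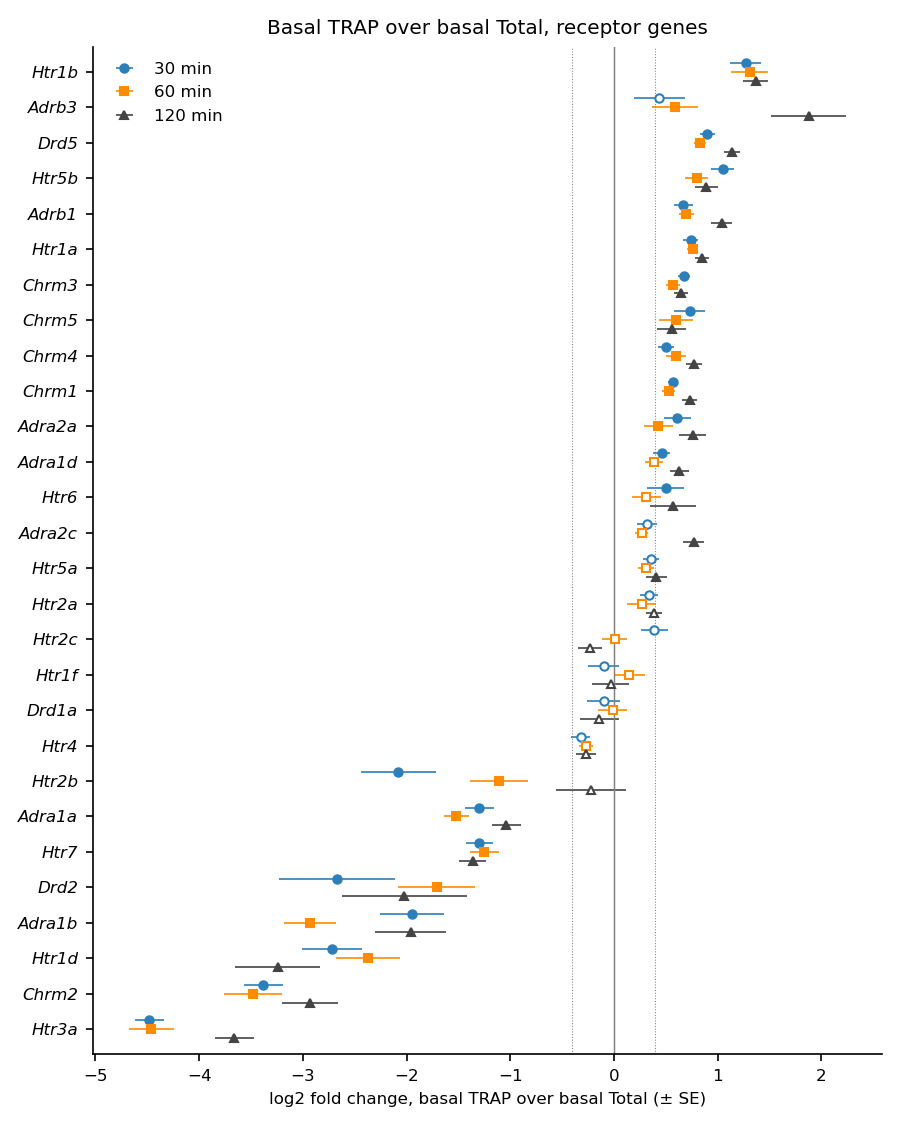
Log2 fold change of basal TRAP over basal Total RNA for 28 of the 29 analysed receptor genes at 30, 60 and 120 min; points are edgeR estimates from 3 libraries against 3, bars are 1 SE, filled points were called (false discovery rate below 0.1 and size above 0.4) and the dotted lines mark 0.4 in each direction. Htr1b, Htr5b and Drd5 lay to the right of 0.4 at each time, Htr3a lay furthest to the left at each time, at -3.66 or lower, and Chrm2 lay at -2.93 or lower.

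The LTP comparisons ask whether potentiation changed receptor transcripts in excitatory neurons (TRAP) or in the slice as a whole (Total). Hardly any receptor gene passed both criteria, and few of all genes did. In TRAP, 0 of 26 tested genes were called at 30 min, 0 of 27 at 60 min and 1 of 24 at 120 min, where 0.393, 0.471 and 1.64% of all genes were called. Genes left untested in TRAP for low counts included Drd2 and Htr1d at each time, Htr2b at 30 min, and Adra1b and Chrm2 at 120 min. In Total RNA, 0 of 29 were called at each time, where 0.119, 0.224 and 1.37% of all genes were. At an unadjusted p below 0.05 there were 4, 6 and 6 genes in TRAP (background 12.9, 12.7 and 12.4%) and 4, 5 and 6 in Total (background 7.44, 3.59 and 12.1%). DESeq2 called the same single gene in TRAP at 120 min and 0 elsewhere. The median log2 fold change of LTP over basal was 0.06, 0.07 and 0.07 in TRAP and -0.06, 0.07 and 0.03 in Total at 30, 60 and 120 min.

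The gene called was Htr1b (chr9:81628291-81633828, minus strand, GRCm38). At 120 min it had 9.67, 9.62 and 9.60 CPM in TRAP LTP, against 6.71, 6.56 and 6.80 CPM in TRAP basal libraries. Every LTP library lay above every basal one, and the spread within each group was small next to the gap. The log2 fold change was 0.51 ± 0.11 (edgeR quasi-likelihood test, adjusted p = 0.0539; 0.00515 with replicates paired). The call was lost when any 1 library other than basal replicate 3 was left out, with adjusted p between 0.134 and 0.263, while the fold change stayed at 0.51 or 0.52.

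In Total RNA at 120 min Htr1b had 2.97, 3.55 and 2.96 CPM in LTP, against 2.67, 2.44 and 2.54 CPM in basal libraries. These groups did not overlap either, but the gene did not pass the test (0.31 ± 0.12, adjusted p = 0.275). At the earlier times the groups overlapped in both kinds of RNA: in TRAP the log2 fold change was 0.16 at 30 min and 0.11 at 60 min, and in Total it was -0.25 and 0.14. The difference between the TRAP and Total responses at 120 min, 0.21 on the log2 scale, was not called.

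The TRAP basal libraries at 120 min are those with high Rn45s and kidney marker levels. With Rn45s left out of the fit, Htr1b stood at 0.51 with an adjusted p of 0.0517, and the part of the kidney RNA in this result was not tested. A transcript on the opposite strand, D430036J16Rik, covers 18.0% of the Htr1b exon bases. It had 4.89, 3.82 and 4.45 CPM in TRAP LTP, against 3.47, 5.29 and 4.21 CPM in TRAP basal libraries at 120 min (0.05 ± 0.18, adjusted p = 0.932).

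Htr1a and Htr5b were the only 2 of the 23 receptor genes tested in TRAP at all 3 times whose LTP libraries lay above all basal libraries at each time. Among all genes tested at all 3 times, 1.88% did so. Htr1a, the receptor through which serotonin hyperpolarizes pyramidal neurons, had 87.3, 95.8 and 88.7 CPM in TRAP LTP, against 76.4, 71.4 and 78.9 CPM in TRAP basal libraries at 30 min. At 60 min the values were 104, 95.0 and 93.2 CPM in LTP and 89.7, 85.8 and 90.8 CPM in basal slices. At 120 min they were 73.0, 78.8 and 76.0 CPM in LTP and 64.5, 62.0 and 67.2 CPM in basal slices.

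The gaps were small throughout. For Htr1a the log2 fold changes were 0.26 ± 0.062 (adjusted p = 0.0953), 0.13 ± 0.056 (0.367) and 0.22 ± 0.075 (0.242), all under the size criterion of 0.4. Without any 1 library the adjusted p at 30 min was 0.145 to 0.338, and with replicates paired it was 0.00330, 0.00718 and 0.0158 at the 3 times. In Total RNA the LTP and basal libraries overlapped at each time, at 0.01, 0.07 and 0.07. The difference between the TRAP and Total responses of Htr1a at 30 min was 0.24 ± 0.11 with an adjusted p of 0.482.

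Htr5b, a serotonin receptor gene that is intact in mice and a pseudogene in humans, had 18.1, 18.3 and 17.7 CPM in TRAP LTP, against 16.4, 17.2 and 15.8 CPM in TRAP basal libraries at 30 min. At 60 min it had 20.7, 20.5 and 19.7 CPM in LTP and 18.3, 18.8 and 15.6 CPM in basal slices. At 120 min it had 14.0, 14.2 and 15.0 CPM in LTP and 11.4, 11.5 and 13.8 CPM in basal slices. The groups stood close to each other at each time, and none of the log2 fold changes of 0.13 ± 0.075, 0.21 ± 0.081 and 0.22 ± 0.11 passed the test unpaired (adjusted p = 0.498, 0.322 and 0.465). Paired, the value at 60 min had an adjusted p of 0.0113.

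**Figure D3:**
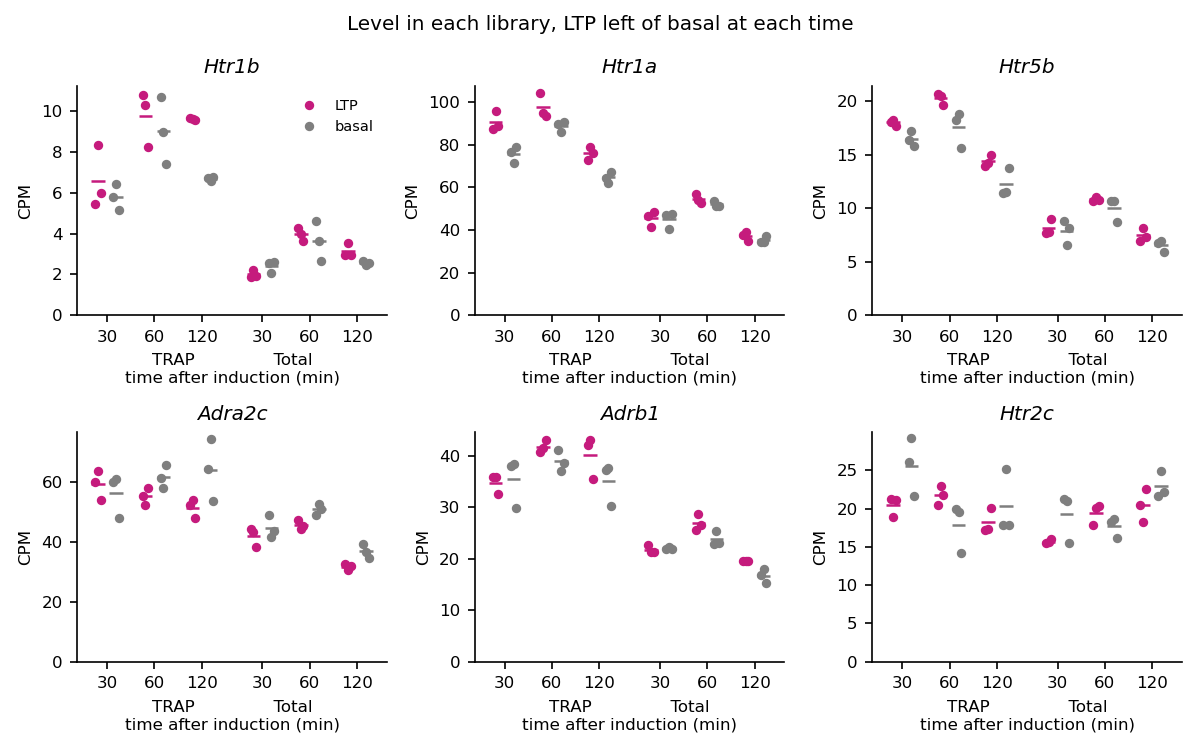
Levels in CPM of Htr1b, Htr1a, Htr5b, Adra2c, Adrb1 and Htr2c in every library, with LTP to the left of basal at each time and TRAP and Total apart; points are libraries and bars are means of 3. Htr1b in TRAP at 120 min shows LTP libraries at 9.60 to 9.67 above basal ones at 6.56 to 6.80, and Htr1a in TRAP shows LTP above basal at each time with narrow gaps.

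In Total RNA the false discovery rate alone was below 0.1 for 2 genes, both noradrenaline receptors at 120 min, and both changes were smaller than 0.4. Kidney markers were present in the Total libraries at 120 min too, and their part in these changes was not tested. Adra2c, a presynaptic and somatodendritic autoreceptor in noradrenergic neurons that hippocampal cells also express, had 32.6, 30.4 and 31.8 CPM in Total LTP, against 39.1, 36.7 and 34.4 CPM in Total basal libraries. Every LTP library lay below every basal one. The log2 fold change was -0.22 ± 0.051 (adjusted p = 0.0339), and the adjusted p was 0.191 without basal replicate 1, 0.122 without basal replicate 2 and 0.145 without LTP replicate 2.

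In TRAP at 120 min Adra2c had 52.1, 53.9 and 47.8 CPM in LTP, against 64.1, 74.2 and 53.7 CPM in basal libraries. Basal replicate 2, at 74.2 CPM, was the library with 61.4% Rn45s reads. The groups overlapped, with LTP replicate 2 just above basal replicate 3, and the log2 fold change of -0.33 ± 0.11 did not pass (adjusted p = 0.253). With replicates paired the adjusted p was 0.00457, and without basal replicate 3 the gene was called at -0.43 (adjusted p = 0.0273). At 60 min its LTP libraries also lay below the basal ones in TRAP and in Total, at -0.16 in each, and at 30 min it stood at 0.07 in TRAP and -0.11 in Total.

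Adrb1, through which noradrenaline raises cyclic AMP in pyramidal neurons, had 19.6, 19.5 and 19.5 CPM in Total LTP, against 16.8, 17.9 and 15.2 CPM in Total basal libraries at 120 min. The groups did not overlap, and the log2 fold change was 0.23 ± 0.062 (adjusted p = 0.0735). Leaving out any 1 library other than basal replicate 2 brought the adjusted p to between 0.133 and 0.234. At 60 min it had 25.6, 28.6 and 26.5 CPM in Total LTP and 22.8, 25.4 and 23.1 CPM in Total basal libraries (0.18 ± 0.067, adjusted p = 0.999). In TRAP its groups overlapped at each time.

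Pairing each LTP library with the basal library of the same animals added 2 calls. Adrb3 in TRAP at 30 min had 0.746, 0.772 and 0.783 CPM in LTP, against 1.44, 1.17 and 0.960 CPM in basal libraries, from 16 to 61 reads each. It stood at -0.63 ± 0.23 (adjusted p = 0.283) unpaired and -0.64 (0.0729) paired. Adra1a in TRAP at 60 min had 4.93, 5.31 and 5.47 CPM in LTP, against 4.38, 3.94 and 3.33 CPM in basal libraries. Its log2 fold change was 0.43 ± 0.12, with an adjusted p of 0.184 unpaired and 0.00753 paired. At 30 min Adra1a stood on the other side of 0 in TRAP, with 4.08, 3.67 and 3.29 CPM in LTP and 5.42, 5.40 and 3.79 CPM in basal libraries (-0.40, adjusted p = 0.347 unpaired and 0.0392 paired). With the pairs in the fit, 1.65, 1.80 and 3.18% of all genes were called in TRAP at 30, 60 and 120 min. By the false discovery rate alone, the pairs brought the receptor genes below 0.1 in TRAP to 7, 10 and 6, where 16.7, 24.3 and 19.2% of all genes were, against 1, 0 and 1 unpaired, where 1.72, 1.41 and 2.29% were. In Total RNA they were 1, 1 and 2 paired (4.04, 1.46 and 6.22% of all genes) and 0, 0 and 2 unpaired (0.186, 0.295 and 3.54%).

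Of the other serotonin receptors, Htr2c lay below basal in TRAP LTP at 30 min (-0.32) and above it at 60 min (0.28) without being called, with a paired adjusted p of 0.0194 and 0.00668. Htr1f, a Gi-coupled receptor, stood at 0.22, 0.04 and 0.31 in TRAP at 30, 60 and 120 min, and Htr7 at -0.35, 0.03 and -0.35. Among the muscarinic genes, Chrm4 at 120 min had 30.0, 29.0 and 32.4 CPM in TRAP LTP, against 24.2, 27.2 and 23.6 CPM in TRAP basal libraries. Those groups did not overlap, and the gene was not called (0.28, adjusted p = 0.242 unpaired and 0.0233 paired). Htr2a, Htr4, Htr5a, Htr6 and Adra1d lay between -0.11 and 0.18 in TRAP at the 3 times. Genes with few TRAP reads spread more widely without passing, such as Adra1b (-0.60 at 30 min, 0.74 at 60 min) and Htr3a (0.22, -0.01 and -0.76). Chrm1 lay between 0.07 and 0.12 in TRAP at the 3 times, and Chrm3 at 0.00, -0.19 (paired adjusted p = 9.11e-05) and 0.08.

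The dopamine genes stayed under the threshold. Drd5 was between -0.03 and -0.10 in TRAP. Drd1a at 120 min had 1.50, 1.53 and 1.08 CPM in TRAP LTP and 2.08, 1.84 and 1.96 CPM in TRAP basal libraries (-0.54 ± 0.22, adjusted p = 0.343). In Total RNA it had 1.72, 1.58 and 1.46 CPM in LTP and 2.01, 2.56 and 1.89 CPM in basal libraries (-0.44 ± 0.16, adjusted p = 0.217). LTP lay below basal in both kinds of RNA, at levels of 1.08 to 2.56 CPM. LTP and basal libraries did not overlap for 5, 6 and 8 receptor genes in TRAP at 30, 60 and 120 min, where 19.7, 18.7 and 18.6% of all genes did not overlap, and for 4, 5 and 7 in Total, where 12.5, 8.60 and 17.3% did not.

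**Figure D4:**
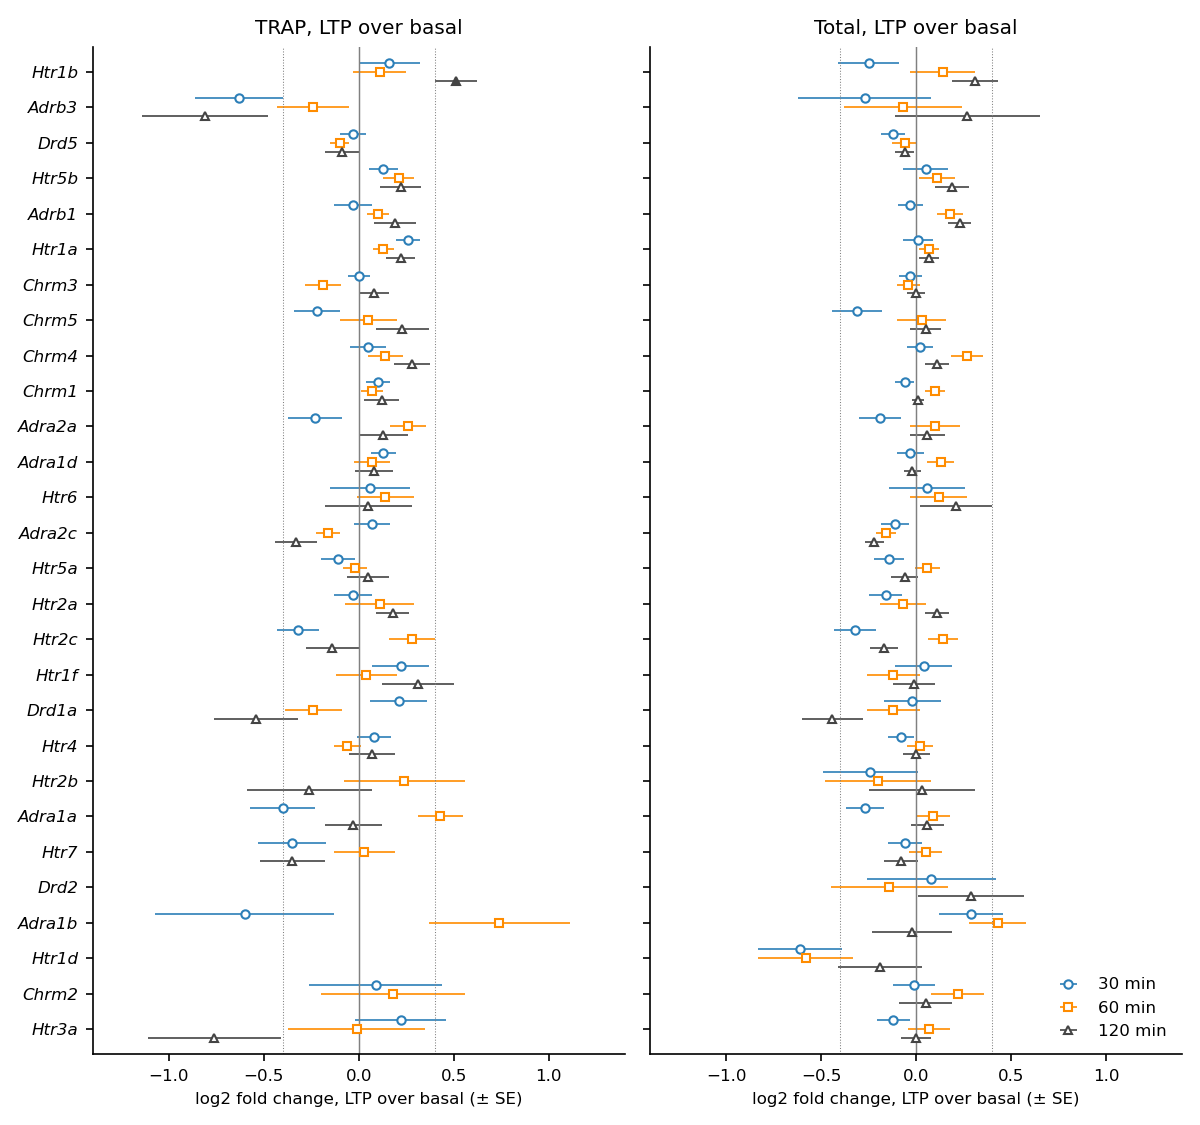
Log2 fold change of LTP over basal for 28 of the 29 analysed receptor genes at 30, 60 and 120 min in TRAP and in Total RNA; points are edgeR estimates from 3 libraries against 3, bars are 1 SE, filled points were called and the dotted lines mark 0.4 in each direction. Htr1b in TRAP at 120 min (0.51) is the single called point; wide bars belong to genes with few reads, and a missing point in TRAP to a gene left untested for low counts.

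Direct tests of how the response differed gave no receptor call in the unpaired fits. The TRAP response was set against the Total response at each time, and 0 of 29 genes had a false discovery rate below 0.1, with 1 at each time at an unadjusted p below 0.05 (9.57, 5.98 and 8.05% of all genes). Those were Htr1a at 30 min (0.24), Adra1a at 60 min (0.35) and Htr3a at 120 min (-0.75). Across all genes 0.104, 0.0891 and 0.26% passed. The response at 120 min against that at 30 min passed for 0 of 27 genes in TRAP and 0 of 29 in Total, where 0.485 and 1.45% of all genes passed. At an unadjusted p below 0.05 there were 4 in TRAP and 5 in Total, where 5.17 and 9.75% of all genes were. With replicates paired, Adra2c (-0.38, adjusted p = 0.0164) and Chrm5 (0.47, adjusted p = 0.0749) passed in TRAP, where 3.39% of all genes did. The response at 60 min against that at 30 min, a test added after the values were seen, passed for 0 of 28 genes in TRAP and 0 of 29 in Total, where 0.0808 and 0% of all genes passed. With replicates paired it passed for 5 genes in TRAP and 2 in Total, where 4.94 and 2.83% of all genes did.

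A fit of the 3 times together, with each replicate pair as a block, was added after the values were seen. In TRAP it put 9 of 28 tested receptor genes below a false discovery rate of 0.1, where 27.4% of all genes were. Htr1a (0.21), Htr5b (0.19), Htr1b (0.24), Chrm1 (0.10), Chrm4 (0.16), Adra1d (0.10) and Htr1f (0.17) were higher in LTP, and Adra2c (-0.12) and Adrb3 (-0.51) were lower. Adrb3 alone exceeded 0.4. In Total RNA 2 of 29 passed, Adra2c (-0.16) and Htr1d (-0.45), where 2.03% of all genes did.

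The proteins that act next to these receptors gave few LTP calls. Of 24 signal transducer genes, which encode G protein subunits, phospholipase C beta isoforms, receptor kinases and arrestins, 1 was called lower in TRAP LTP at 30 min, where 0.393% of all genes were called in either direction, and 0 in the other 5 LTP comparisons. This was Adrbk2, a receptor kinase that phosphorylates active receptors so that arrestins bind (-0.41 ± 0.060, adjusted p = 0.0233). Between basal TRAP and basal Total RNA, 8, 6 and 8 of the 24 were higher (29.0, 27.0 and 26.8% of all genes) and 7, 6 and 6 lower (32.7, 31.1 and 32.4%), which is close to the share over all genes. Gnas, which encodes the alpha subunit of Gs, was higher in TRAP at all 3 times, as were the Gq family genes Gnaq and Gna11. The Gi family genes differed among themselves: Gnai2 and Gnai3 were lower at all 3 times, Gnai1 was higher at 30 min and Gnaz at 30 and 120 min. Also lower at all 3 times were Plcb1, Plcb3 and Plcb4.

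Genes for making, moving and breaking down the transmitters were mostly absent or low, and 0 of the 9 to 11 that could be tested were called in any LTP comparison. The choline acetyltransferase gene Chat had 0 to 2 reads per library. In basal TRAP against basal Total RNA, the monoamine oxidase genes Maoa and Maob, the decarboxylase gene Ddc, the cholinesterase gene Bche and the choline transporter gene Slc5a7 were lower at all 3 times, with Maob at -3.03, -3.58 and -3.33.

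Because forskolin raises cyclic AMP, the promoters of the receptor genes were searched for the letters of the cyclic AMP response element. Windows of 250 bases before to 50 after the start (RefSeq, GRCm38.p6) were at hand for 25 of the 33 genes, 29 windows in all. The full element TGACGTCA was in 0 of the 29, against 588 of all 32851 windows (1.79%). The shorter element, TGACG or its other strand CGTCA, which the full one contains, was in 3 of the 29 (10.3%), against 20.8% of all windows. The windows were those of the serotonin receptor gene Htr7, where the element began 87 bases before the start, and of Adra2a and Adrb1. The stretches of Adra2a and Adrb1, both noradrenaline receptor genes, are shown with the element in capitals. They read 5′ to 3′ on the strand of the gene. The Adra2a stretch is chr19:54045180-54045204 on the plus strand and the Adrb1 stretch chr19:56722017-56722041 on the plus strand.
Adra2a: acgtgggggcTGACGccggctgctc
Adrb1: tgcgggagccTGACGcgcggccccg

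The elements began 69 bases before the RefSeq start in Adra2a and 90 in Adrb1. For both genes the 2 annotations differ. The GENCODE Adra2a gene used for the levels begins at position 54044151, so there the stretch lies inside the gene. The GENCODE Adrb1 gene begins at position 56722199, so its element lies further from that start. Adra2a, Adrb1 and Htr7 were not called in any LTP comparison. In TRAP LTP over basal at 30, 60 and 120 min, Adra2a stood at -0.23, 0.26 and 0.13 and Adrb1 at -0.03, 0.10 and 0.19. The Htr1b window held neither form. A match is a run of letters, not a measured binding site.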

How the data were processed

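Per the submitters' notes, reads were aligned to mm10 with STAR and analysed with edgeR (versions and gene annotation not given in the sources used here). Ribosomal RNA was depleted and the TruSeq libraries keep no strand. The authors deposited raw counts per gene in 3 tables, 1 per time, with 3 replicates in each of 12 groups. Beside them stand 54 columns of normalized counts and per-pair log2 fold changes, and columns of the authors' own fold changes and false discovery rates; none was used. One library has a label field that differs from its title in time, and the title was followed. Of 24060 rows per table, 27 symbols had been turned into dates; 25 were recovered, 2 rows were left out.

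The members, lists and tests were chosen with earlier results of these data known. Members with a mean of at least 10 reads are named, apart from items that are not reported here. Values per library are given for those called, those at the ends of the basal TRAP to Total ratio, and others picked after their values were seen. Counts of all genes were fitted per comparison with edgeR 4.0.16 (TMM, filterByExpr, quasi-likelihood test, Benjamini-Hochberg adjustment) in R 4.3.3. A gene was called at a false discovery rate below 0.1 and an absolute log2 fold change above 0.4, and an interaction at the first alone. The SE of a fold change was derived from its F statistic. CPM were scaled by TMM over the 12 libraries of a time. Levels per kb used merged exons of the GENCODE basic annotation (GRCm38). The fits were tested on simulated data. DESeq2 1.42.0, limma 3.58.1, other scalings and filters, a replicate block and leaving out each library were run as alternatives.

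Each replicate was pooled from several mice, and the series text pairs each basal replicate with an LTP one. Deviations of same-numbered libraries correlated at 0.108 to 0.426, and of other pairs at 0.07 at most, so the numbers were taken to pair the samples.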

Additional observations from a re-analysis of the deposited data

Results flagged for a closer look

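Htr2c, a Gq-coupled serotonin receptor, stood out because its LTP and basal libraries lay apart in TRAP at 2 times, in opposite directions. At 30 min it had 21.3, 18.9 and 21.1 CPM in TRAP LTP, against 26.1, 29.2 and 21.6 CPM in TRAP basal libraries, a log2 fold change of -0.32 ± 0.11 (edgeR quasi-likelihood test, adjusted p = 0.241; 0.0194 with replicates paired). At 60 min it had 20.5, 23.0 and 21.8 CPM in TRAP LTP, against 19.9, 19.6 and 14.2 CPM in TRAP basal libraries, a log2 fold change of 0.28 ± 0.12 (0.363; 0.00668 paired). LTP lay wholly below basal at the earlier time and wholly above it at the later one, by small gaps. At 120 min the groups overlapped (-0.14).

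The test of the response at 60 min against that at 30 min, chosen after these values were seen, gave 0.61 ± 0.18 for Htr2c in TRAP (adjusted p = 0.537; 0.60 ± 0.13 and 0.0208 paired) and 0.45 ± 0.14 in Total RNA (0.679; 0.44 and 0.0721 paired). With replicates paired the genes that passed in TRAP were Adra1a (0.83, adjusted p = 0.0109), Adra2a (0.49, 0.0562), Adra2c (-0.23, 0.0416), Chrm3 (-0.19, 0.0925) and Htr2c. In Total RNA they were Adra1a (0.35, 0.0984) and Htr2c. Reads were single-end at 30 min and paired-end at 60 min, and the part of that in these differences was not tested.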

How the results depend on the processing

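No result changed direction under the alternatives run. With the replicate block, the count of receptor genes called lower in TRAP at 30 min was 1 in place of 0 (2 with the length trend removed too), the count called higher in TRAP at 60 min was 1 in place of 0, and the TRAP response at 120 against 30 min gave 1 higher and 1 lower in place of 0. The block ended no other receptor call of LTP against basal. That count at 60 min was also 1 with the edgeR exact test, with all 12 libraries in 1 fit, and with the block and the length trend removed. Leaving out 1 library gave 0 to 1 higher and 0 to 1 lower in TRAP at 120 min and 0 to 1 lower in Total at 30 min, the last being Htr2c without basal replicate 3 (-0.44, adjusted p = 0.0304). Between basal TRAP and basal Total RNA, leaving out 1 replicate gave 12 to 15, 9 to 11 and 13 to 16 receptor genes higher at 30, 60 and 120 min, and 9, 9 and 8 lower. The response at 60 against 30 min passed for 5 receptor genes in TRAP and 2 in Total with the block, and 0 without it. With 3 libraries a group, and few TRAP reads for the genes at the low end, small changes could not be detected there. Htr1b kept its call in 12 of 17 alternatives, with fold changes of 0.49 to 0.53 and adjusted p of 0.00504 to 0.263.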
